A study of Mus musculus with 6 samples.

Results

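Phospholipase A2 genes encode enzymes that release a fatty acid from membrane or dietary phospholipids. The 7 genes described here, Pla2g4a, Pla2g4c, Pla2g5, Pla2g6, Pla2g10, Pla2g12a and Pla2g15, were taken by symbol from a count table of 20409 features. They were chosen by measured values, since Pla2g4c is lower and Pla2g5 is higher in mutant than in wild-type villi in these same libraries. For that reason the difference of each of the 7 genes between the groups is given as a description, without a test. The table holds 6 bulk RNA-seq libraries of mouse duodenal villus epithelium, 1 library per mouse, made after enrichment of polyadenylated RNA. The 3 double mutant mice (DM, labelled Smad4 knockout; beta-catenin GOF) carried Smad4 fl/fl and Ctnnb1 exon 3 fl/wt alleles with the Villin-CreERT2 transgene, whose promoter drives Cre in the whole intestinal epithelium. They received tamoxifen at 0.05 g/kg on each of 4 days, and their villi were collected at 7 days. The 3 wild-type mice (WT) were littermates without tamoxifen, so the mutations and the tamoxifen cannot be told apart. Each group held 2 females and 1 male, mouse 1 of each group being the male. The mice came from a C57BL6-enriched background, and their ages were matched between the groups but are not given in the labels. The study compared the groups to learn how villus transcription shifts while mutant cells dedifferentiate.

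The phospholipase A2 family falls into several branches. The cytosolic enzymes act inside cells, and the first of them described, encoded by Pla2g4a, prefers phospholipids that carry arachidonic acid, the precursor of prostaglandins and leukotrienes. The secreted enzymes are small, depend on calcium and act outside the cell, where in the gut they take part in phospholipid digestion and in killing bacteria. The calcium-independent enzyme encoded by Pla2g6 serves membrane upkeep, and the enzyme encoded by Pla2g15 works in lysosomes.

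Pla2g4c and Pla2g5 were the members with the widest separation between the groups, and the stretches before their transcription starts are shown for that reason. The windows are the 250 bases before each start in RefSeq (GRCm38.p6), and each of them was found once, letter for letter, in mm9, the build of the count table. The first 200 bases of each are printed 5′ to 3′ on the strand of the gene, and none of these bases lies in an annotated exon. Capitals mark matches to short motifs of the DNA-binding partners of β-catenin (TCF/LEF) and of SMAD proteins. The window of the first Pla2g4c start lies on the plus strand, and those of both Pla2g5 starts on the minus strand. The starts are those of RefSeq. In the GENCODE annotation of mm9, from which the gene spans here are taken, the span of Pla2g4c begins further upstream, so its first window lies inside that span, with 38 of its 250 bases in an annotated exon beyond the printed stretch. The window of the second Pla2g5 start likewise lies inside the span of its gene.
Pla2g4c, first start, chr7:13910766-13910965: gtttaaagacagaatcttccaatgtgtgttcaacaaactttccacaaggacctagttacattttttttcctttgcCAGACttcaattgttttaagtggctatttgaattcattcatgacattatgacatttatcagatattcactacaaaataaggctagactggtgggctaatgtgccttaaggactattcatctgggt
Pla2g5, first start, chr4:138419435-138419634: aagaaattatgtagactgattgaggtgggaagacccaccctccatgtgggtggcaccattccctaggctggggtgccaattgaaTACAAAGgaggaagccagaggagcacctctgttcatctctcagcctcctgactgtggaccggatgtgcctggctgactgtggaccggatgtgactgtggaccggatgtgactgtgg
Pla2g5, second start, chr4:138375223-138375422: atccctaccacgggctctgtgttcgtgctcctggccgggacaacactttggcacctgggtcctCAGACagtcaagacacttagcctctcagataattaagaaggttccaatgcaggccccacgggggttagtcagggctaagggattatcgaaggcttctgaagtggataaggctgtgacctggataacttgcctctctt

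Both strands were searched. The TCF/LEF motif was spelled CTTTGAA in its main form. Its other forms were CTTTGAT, with a different last letter, then CTTTGTT, with a different ending, and finally CTTTGTA as the last form allowed. The SMAD motif was spelled CAGAC in its main form, with GGCGC as a form rich in guanine and cytosine. The first Pla2g4c window held CAGAC at 175 and at 41 bases before the start, the second of these beyond the printed stretch. The first Pla2g5 window held CTTTGTA on the opposite strand at 166 bases before the start, and the second held CAGAC at 187 bases. The window of a second Pla2g4c start, chr7:13914421-13914670, and that of Pla2g2d, a neighbour of Pla2g5, chr4:138331400-138331649, held none of these letters. Matches of this kind are common. Of 32851 promoter windows of the same length, 14.8% held a TCF/LEF motif and 61.6% a SMAD motif, CAGAC alone standing in 42.2% and CTTTGTA in 3.2%. A match describes the letters only, and no binding was measured here.

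The libraries held 19678507 to 26337318 counts each, and 3 counts, taken as the lowest level this depth can show, corresponded to 0.125 to 0.163 CPM (counts scaled to a common library size, after TMM correction). These floors cover counting error only. The targeted gene Smad4 stood at 120, 180.1 and 145 CPM in WT mice 1 to 3 and at 26.1, 36.8 and 32.1 CPM in DM mice 1 to 3. Ctnnb1, of which only exon 3 is removed, differed by -0.15 on the log2 scale (edgeR adjusted p = 0.359). The enterocyte marker list, 10 genes in all, summed to 51840 to 61420 CPM in WT and 29840 to 33170 CPM in DM, so the labelled epithelium was present in every library. WT mouse 1 stood apart from WT mice 2 and 3. Its 8 goblet cell markers summed to 125 CPM against 11620 and 11040 CPM, and its 6 Paneth cell markers other than Reg3g to 7.91 CPM against 909 and 1500 CPM, whereas the DM libraries held 4669 to 5064 and 154 to 248 CPM. Values without WT mouse 1 are given for Pla2g5 and Pla2g10 and for the other genes named with it. In bulk samples such as these, fewer cells of a type and less RNA per cell cannot be told apart.

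All 7 genes passed the filter on low counts that left 13346 genes, but only 4 of them stood above it in all 3 libraries of both groups. Pla2g5 and Pla2g10 stood above it in 2 WT libraries, and Pla2g15 in none, so that Pla2g15 entered through the DM libraries alone. By edgeR's quasi-likelihood test, 36.8% of all tested genes had an adjusted p under 0.05, 19.7% higher and 17.0% lower in DM. Of the 7 members 3 passed the same threshold, 2 higher and 1 lower. The groups did not overlap for 3 of the 7, against 52.4% of all tested genes (28.1% with DM higher and 24.2% with DM lower). The median log2 fold change of the members was 0.20, against 0.02 over all tested genes. Because the members were picked for this very contrast, nothing is read from these counts.

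Among the cytosolic members, Pla2g4c encodes an enzyme that acts without calcium. The gene (ENSMUSG00000033847) lies at chr7:13910004-13946021 on the plus strand. It had 320.1, 362 and 559 CPM in WT mice 1 to 3 and 1.17, 0.696 and 0.712 CPM in DM mice 1 to 3. The raw counts behind these values were 7684, 6652 and 11057 in WT and 25, 15 and 15 in DM. Each WT library thus stood far above each DM library. The DM level was low but stood above the 3-count floor in all 3 libraries. The log2 fold change was -8.90 (SE 0.337), a 481-fold lower mean CPM in DM, and it lay between -9.18 and -8.63 when each library was left out in turn. Of the 10 enterocyte markers 7 fell and 1, Fabp1, rose (0.82, edgeR adjusted p = 0.0332), with a median log2 fold change of -0.90. Their part in the level of Pla2g4c was not tested. Both antisense and short RNA genes annotated within the Pla2g4c span shared no exon base with it and had at most 6 counts in a library.

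Pla2g4a (ENSMUSG00000056220, chr1:151676748-151808420, minus strand), the arachidonate-preferring enzyme, was low in both groups. It had 2.12, 0.870 and 4.55 CPM in WT and 4.04, 4.17 and 2.61 CPM in DM. The groups overlapped, with the highest and the lowest values both in WT. Its log2 fold change of 0.52 (SE 0.524) was no larger than its standard error, and 1 library moved it. The value was 1.24 without WT mouse 3 and 0.12 without WT mouse 2.

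Among the secreted members, Pla2g5 encodes an enzyme known from macrophages and heart that also acts on phospholipids of the outer cell membrane. The gene (ENSMUSG00000041193) lies at chr4:138355159-138419397 on the minus strand. It had 0.208, 0.653 and 1.57 CPM in WT mice 1 to 3, from 5, 12 and 31 counts. In DM mice 1 to 3 it had 57.1, 76.5 and 58.5 CPM, from 1216, 1650 and 1232 counts. The WT values spread widely around a low level, whereas the DM values lay close together, and the groups were far apart. The log2 fold change was 6.34 (SE 0.520), a 79.1-fold higher mean CPM in DM. It was 5.83 without WT mouse 1 and 7.27 without WT mouse 3, the WT library with the most Pla2g5 counts. Macrophage and dendritic cell markers, 6 of 7 in the table, summed to 2.04 to 5.05 CPM in WT and 2.91 to 3.61 CPM in DM, so these ranges overlapped. Fibroblast and muscle markers, 7 of 8 in the table, summed to 0 to 0.253 CPM in WT and 0.332 to 5.87 CPM in DM. The fibroblast and muscle sums did not overlap between the groups. The highest was that of DM mouse 1 at 5.87 CPM, with 0.881 and 0.332 CPM in DM mice 2 and 3. None of these markers had enough counts to be tested. The part of either list in the level of Pla2g5 was not tested.

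Pla2g10 (ENSMUSG00000022683, chr16:13715150-13731076, minus strand) encodes a secreted enzyme that is active on phosphatidylcholine and is known from the gut. It had 0.208, 3.21 and 3.29 CPM in WT and 1.97, 1.90 and 2.75 CPM in DM. WT mouse 1, with 5 counts against 59 and 65 in WT mice 2 and 3, set the overlap of the groups. The log2 fold change was -0.00 (SE 0.770) over all libraries and -0.56 (SE 0.299) without WT mouse 1, when both remaining WT libraries stood above the 3 DM libraries. The low goblet and Paneth cell markers of WT mouse 1 stand beside this value, and their part in it was not tested.

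Pla2g12a (ENSMUSG00000027999, chr3:129581524-129598739, plus strand), a secreted enzyme distant in sequence from the others, had 3.96, 2.88 and 4.50 CPM in WT and 3.66, 5.29 and 4.08 CPM in DM. The groups overlapped, and the log2 fold change was 0.20 (SE 0.269).

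Pla2g6 (ENSMUSG00000042632, chr15:79116658-79158820, minus strand), the calcium-independent enzyme, had 55.5, 53.4 and 43.0 CPM in WT and 39.3, 47.5 and 49.7 CPM in DM. It was the member with the steadiest level, its groups overlapped, and its log2 fold change was -0.15 (SE 0.144). Scaled by library size alone the value was 0.04, so its direction is not settled.

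Pla2g15 (ENSMUSG00000031903, chr8:108674299-108688613, plus strand), the lysosomal enzyme, had 0.208, 0.326 and 0.354 CPM in WT and 1.36, 1.07 and 1.71 CPM in DM. The DM libraries all stood above the WT libraries, but at 5 to 7 counts per WT library the WT level was barely above the floor. The log2 fold change was 2.21 (SE 0.454).

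**Figure D1:**
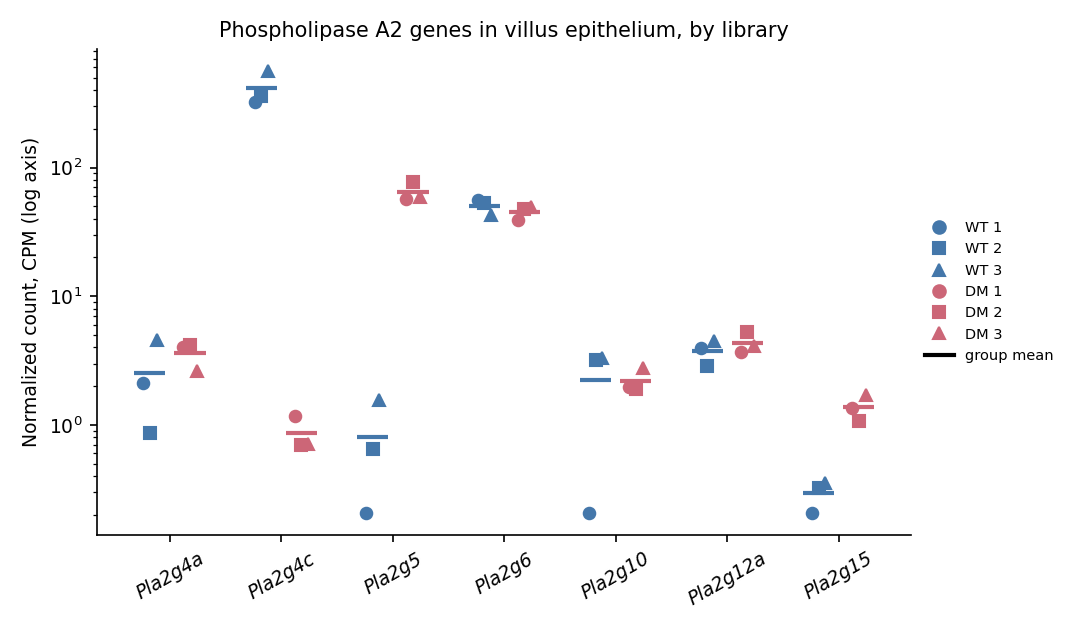
Normalized counts of the 7 phospholipase A2 genes in each library, in CPM on a log axis, WT in blue and DM in red, with symbols for mice 1 to 3 and a line at the group mean. Pla2g4c lies at 320.1 to 559 CPM in WT and at 0.696 to 1.17 CPM in DM, Pla2g5 at 0.208 to 1.57 and 57.1 to 76.5 CPM, and Pla2g10 shows the single low point of WT mouse 1.

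Levels of different genes were set side by side per length, as RPKM (CPM per kilobase of annotated exon). In WT, Pla2g4c led with 110 ± 34.0 RPKM (SD, n = 3), followed by Pla2g6 with 10.2 ± 1.34 and Pla2g12a with 2.26 ± 0.492. Pla2g10 (1.49 ± 1.17), Pla2g4a (0.394 ± 0.293), Pla2g5 (0.281 ± 0.240) and Pla2g15 (0.110 ± 0.0286) came after them. The first 3 did not overlap one another, but from Pla2g12a down each gene overlapped the next, so the lower part of the order was not resolved.

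In DM the order of RPKM levels opened with Pla2g5 at 22.2 ± 3.76, then Pla2g6 at 9.14 ± 1.09, Pla2g12a at 2.60 ± 0.505 and Pla2g10 at 1.47 ± 0.314. Pla2g4a followed at 0.565 ± 0.136 and Pla2g15 at 0.510 ± 0.119, and Pla2g4c stood last at 0.230 ± 0.0724. Only Pla2g4a and Pla2g15 overlapped as neighbours in this order. Pla2g4c thus stood first in WT and last in DM, and Pla2g5 stood first in DM but among the unresolved lower genes in WT. Pla2g6 was second in both groups.

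The RPKM of the 7 genes together was 99.6, 112 and 164 in WT mice 1 to 3 and 32.6, 41.8 and 35.8 in DM mice 1 to 3, without overlap. Pla2g4c made up 85.8 to 90.9% of this sum in the WT libraries and 0.445 to 0.960% in the DM libraries. Pla2g5 made up 0.0726 to 0.331% in WT and 56.7 to 63.6% in DM. The sum in DM stayed below that in WT with the higher Pla2g5 level included. It covers these 7 genes alone, which were chosen in part because Pla2g4c is lower in DM. Other phospholipase A2 genes, given below, lie outside it, so it is no total for the family. The share of Pla2g6 was 5.26 to 11.2% in WT and 22.9 to 27.9% in DM, although its own level overlapped between the groups.

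**Figure D2:**
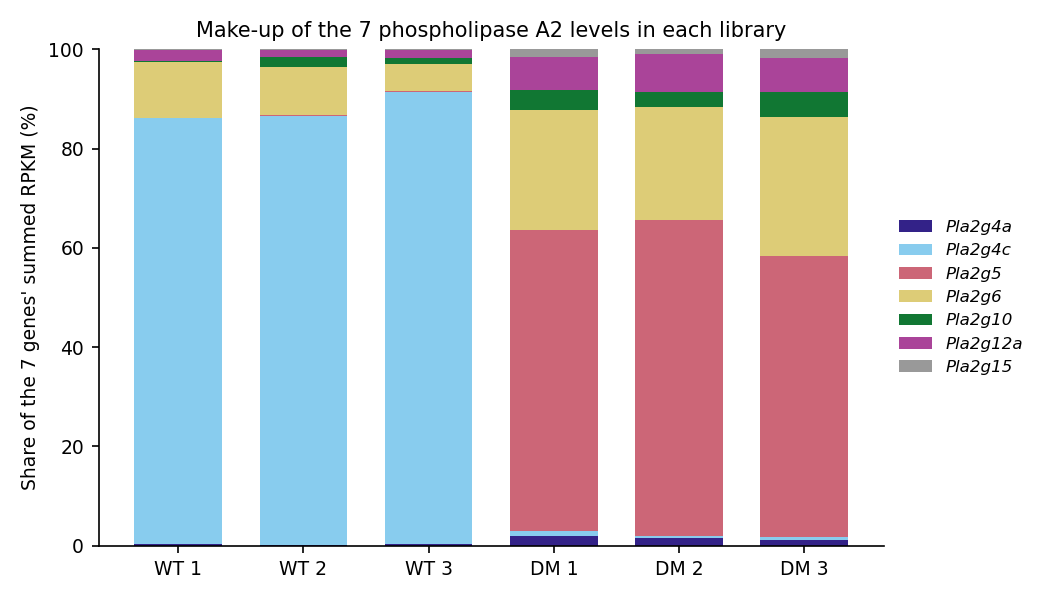
Share of each gene in the summed RPKM of the 7 phospholipase A2 genes, in percent, with 1 bar per library. Pla2g4c fills 85.8 to 90.9% of the WT bars, and Pla2g5 fills 56.7 to 63.6% of the DM bars with Pla2g6 next at 22.9 to 27.9%.

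Pla2g5 lies in a cluster of secreted phospholipase A2 genes on chromosome 4, whose other members were not used to choose the 7 genes and were tested where their counts allowed. Pla2g2d (ENSMUSG00000041202, chr4:138331650-138337961, plus strand), a secreted enzyme described in dendritic cells, lies 17198 bases from Pla2g5. It had 0.417, 0.816 and 0.758 CPM in WT and 8.17, 11.1 and 12.1 CPM in DM, and it rose by 3.99 on the log2 scale (SE 0.318, edgeR adjusted p = 0.000114). All 3 DM libraries stood above all 3 WT libraries, and the call held in each of 14 other fits. The macrophage and dendritic cell markers given above overlapped between the groups, and their part in the result was not tested.

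Pla2g2a (ENSMUSG00000058908, chr4:138387772-138391101) lies within the span of Pla2g5 on the opposite strand. It encodes an antibacterial enzyme of Paneth cells. The C57BL/6 strain carries a disrupted copy, and the locus is known as a modifier of intestinal tumour number. It had 0, 45.0 and 91.8 CPM in WT mice 1 to 3 and 237, 727 and 593 CPM in DM mice 1 to 3. The groups did not overlap, yet the WT libraries differed so widely that the log2 fold change of 3.51 had an SE of 1.79 and did not pass (edgeR adjusted p = 0.202). Without WT mouse 1 it was 2.92 and passed (adjusted p = 0.0442), and limma-voom called it with all libraries (7.18, adjusted p = 0.0404). Over the 14 other fits its adjusted p ran from 0.0404 to 0.382. The 7 Paneth cell markers summed to 1226, 3697 and 4377 CPM in WT mice 1 to 3 and to 7633 to 14560 CPM in DM. Most of this was Reg3g, the single one of the 7 that was called, which rose by 2.21 (edgeR adjusted p = 0.00517). The other 6, given above, summed in the DM libraries to less than in WT mice 2 and 3 and more than in WT mouse 1, but not alike, since Mmp7 stood above all WT libraries in DM and Lyz1 between WT mice 2 and 3. Their part in the level of Pla2g2a was not tested.

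Because the strand setting of the counting is not given in the sources used here, reads of Pla2g2a and Pla2g5 may not be fully told apart. The 2 genes shared 0 annotated exon bases. There were 1.45 and 1.71 Pla2g5 counts for each 100 Pla2g2a counts in WT mice 2 and 3, and 24.1, 10.5 and 9.86 in DM mice 1 to 3. WT mouse 1 had 5 Pla2g5 counts beside 0 for Pla2g2a. The counts of both genes were ordered alike over the WT libraries, and DM mouse 2 had the most of both, while the ratio was higher in DM. The part of Pla2g2a reads in the Pla2g5 counts was not tested.

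Pla2g2f, another secreted enzyme of the cluster, overlapped between the groups and did not pass (log2 fold change 0.69, edgeR adjusted p = 0.306, and 0.27 without WT mouse 1). Pla2g2c had at most 1 count and Pla2g2e at most 16 counts in a library, and neither was tested. Otud3, a deubiquitinase gene 31897 bases beyond the other end of Pla2g5, did not pass (-0.39, adjusted p = 0.189). Of the neighbours of Pla2g4c, the DNA ligase gene Lig1, 13222 bases away, had nearly the same level in both groups (-0.05, SE 0.192, adjusted p = 0.858). 6330408A02Rik did not pass either (-0.36, adjusted p = 0.397). Vmn1r89, Cabp5, Bsph1 and 9230107M04Rik on chromosome 7, and Gm13030 on chromosome 4, are not among the features analysed here. Pla2g2d was the single gene called of the 5 neighbours tested besides Pla2g2a.

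**Figure D3:**
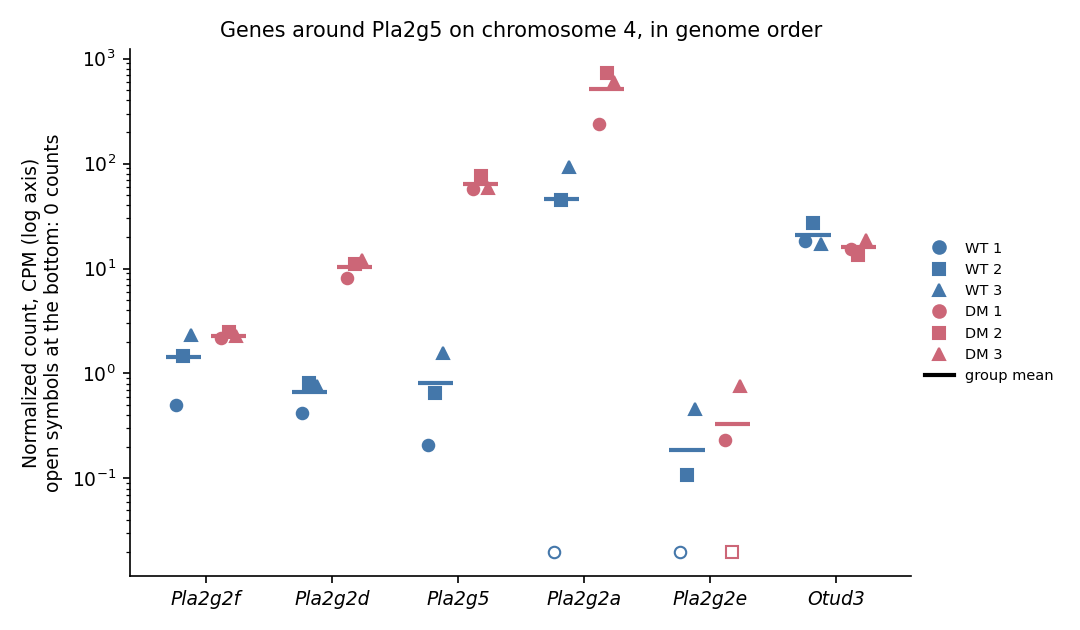
Normalized counts, in CPM on a log axis, of Pla2g5, its secreted phospholipase A2 neighbours and Otud3 in each library, in the order of their positions, with open symbols at the bottom for libraries with 0 counts. Pla2g2d lies at 0.417 to 0.816 CPM in WT and 8.17 to 12.1 CPM in DM, Pla2g2a spans 0 to 91.8 CPM in WT and 237 to 727 CPM in DM, and Otud3 overlaps between the groups.

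The genes whose profile over the 6 libraries was most like that of Pla2g4c, by the root mean square difference of centred log2 CPM, were Fn1 (0.795), Rtn4rl2 (0.906), Clca6 (1.30), Nt5e (1.31) and an unannotated transcript (1.42). Fn1, which encodes fibronectin, had 89.1, 79.8 and 96.1 CPM in WT and 0.798, 0.464 and 0.285 CPM in DM. Nt5e, whose product makes adenosine from AMP at the cell surface, had 108 to 142 CPM in WT and 1.02 to 2.14 CPM in DM. Rtn4rl2, a Nogo receptor relative, had 208 to 400 counts in WT and 0 in all DM libraries. The profiles nearest to Pla2g5 were those of Penk (0.631), Cyp1b1 (0.837), Mt2 (0.983), Gpr110 (1.09) and Cldn2 (1.15). Penk, the proenkephalin gene, had 0, 0 and 1 counts in WT and 156, 318 and 311 in DM. Cyp1b1, a cytochrome P450 gene, had 0 counts in all WT libraries and 98 to 243 in DM. Cldn2, a claudin that lets cations and water pass between cells, had 7.87 to 36.9 CPM in WT and 351 to 414 CPM in DM. With 2 groups of 3 libraries, any gene with a large difference between the groups has a similar profile. The choice of measure set which genes were nearest, since by Pearson's r only 1 of the 5 remained for either gene.

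The other genes of the pathway were followed in 7 lists with 111 genes, of which 97 were in the table and 75 were tested. They cover the other phospholipase A2 genes and their regulators (17 tested) and the genes that handle the products of these enzymes (58 tested). The lists were written with earlier results of these data known, so the shares called, here and by list below, are a description only. Of these 75 genes, 17 rose and 23 fell, so 53.3% were called against 36.8% of all tested genes. Their median log2 fold change was -0.14. Of the 58 genes that handle the products, 12 rose and 21 fell, which is 56.9%, with a median of -0.24. Of the 17 others, 5 rose and 2 fell, which is 41.2%. Scaled by library size alone, 21 of the 75 rose and 15 fell, and the median over all genes moved by 0.194. The groups did not overlap for 47 of the 75, against 52.4% of all tested genes.

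The other phospholipase A2 genes, 16 of them tested, had a median log2 fold change of 0.01, and 4 rose while 2 fell. The share called was 37.5%, near the 36.8% of all tested genes. Besides Pla2g2d, the largest rise among the called genes was that of Prdx6, a peroxiredoxin that also has phospholipase A2 activity. Prdx6 had 164, 160 and 176 CPM in WT and 501, 579 and 441 CPM in DM, a rise of 1.60 (SE 0.129, edgeR adjusted p = 0.000117). Its groups stood well apart. Pla2g4b, a cytosolic enzyme, rose by 0.96 (adjusted p = 0.0236), from 2.61 to 4.85 CPM in WT to 6.31 to 7.05 CPM in DM, but the call was lost without WT mouse 2 and without each DM mouse in turn (adjusted p up to 0.0781). Pnpla2, the adipose triglyceride lipase, fell by 0.54 (adjusted p = 0.00466). Pnpla8, a calcium-independent enzyme of mitochondria and peroxisomes, fell by 0.52 (adjusted p = 0.0256), a call lost in 5 of the 14 other fits. Pla2g12b, an enzyme-dead relative of Pla2g12a that acts in lipoprotein formation, had 82.2 ± 14.7 CPM in WT and 69.0 ± 8.39 CPM in DM (SD, n = 3) and did not pass (edgeR adjusted p = 0.229). Pla2g3 (-0.53) and Plaat3 (0.03) did not pass, with adjusted p = 0.359 and 0.907. Plb1, the brush border phospholipase, had 2 to 8 counts per library, Pla2g4f at most 6 and Pla2g7, the plasma acetylhydrolase of platelet-activating factor, at most 13, too few to test.

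Of the 3 regulators listed, Plaa, which activates phospholipase A2, rose by 0.59 (edgeR adjusted p = 0.00482). Anxa1, a phospholipid-binding protein known as a phospholipase A2 inhibitor, had 0 counts in every WT library and 11, 8 and 13 counts in DM, at least 3.42-fold higher against a floor of 3 counts per library. It was not tested, and neither was the receptor gene Pla2r1 at 0 to 7 counts.

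Of 10 prostanoid enzyme genes tested, 2 rose and 4 fell, which is 60.0% against 36.8% of all tested genes. Their median log2 fold change was -0.41. Ptgs1, the constitutive cyclooxygenase that starts prostaglandin synthesis, had 9.75, 7.45 and 10.7 CPM in WT and 0.610, 0.139 and 0.522 CPM in DM. It fell by 4.44 (SE 0.429, edgeR adjusted p = 0.000253), with no overlap between the groups. Ptgs2, the inducible cyclooxygenase, had 5, 20 and 18 counts in WT and 2, 0 and 0 in DM and was not tested. Ptges, a prostaglandin E synthase, had 1 to 11 counts per library in both groups and was not tested either. Hpgd, which breaks prostaglandins down, went from 198 ± 43.7 to 62.5 ± 22.9 CPM (SD, n = 3) and fell by 1.66 on the log2 scale (edgeR adjusted p = 0.00401). Hpgds, a prostaglandin D synthase, fell by 1.62 (adjusted p = 0.0334), but the call was lost in 5 of the 14 other fits, with an adjusted p as high as 0.111 without WT mouse 3. The largest rise was that of Akr1b3, an aldo-keto reductase with prostaglandin F synthase activity (1.45, adjusted p = 0.000842).

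Of 9 lipoxygenase and leukotriene genes tested, 1 rose and 5 fell, which is 66.7% against 36.8% of all tested genes. Their median was -0.41. Alox5, which makes the leukotriene precursor from arachidonic acid, had 12.5, 10.7 and 15.2 CPM in WT and 1.22, 0.649 and 0.617 CPM in DM. Alox5ap, the membrane protein that hands it the substrate, had 12.5, 9.03 and 15.2 CPM in WT and 0.423, 0.835 and 1.04 CPM in DM. Alox5 fell by 3.94 (SE 0.310, edgeR adjusted p = 0.000114) and Alox5ap by 3.99 (SE 0.354, adjusted p = 0.000175), each with no overlap between the groups. Ltc4s, the leukotriene C4 synthase, did not pass (-0.38, SE 0.284, adjusted p = 0.325, and -0.08 without WT mouse 1). The rise was that of Mgst2, another enzyme that can make leukotriene C4 (0.71, adjusted p = 0.00810). Alox15 had at most 7 counts in a library and was not tested.

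Ptgs1, Alox5, Alox5ap and Hpgds are known to be expressed in tuft cells, rare chemosensory cells of the epithelium. The 8 tuft cell markers, none of them in the lists above, summed to 149, 114 and 168 CPM in WT and 16.5, 14.4 and 16.4 CPM in DM. All 6 that were tested fell, with a median log2 fold change of -3.04, and the other 2, Gnat3 (13, 2 and 6 counts in WT) and Il25 (0, 12 and 5), were at 0 counts in DM and too low in WT to test. Ltc4s, also known from tuft cells, and Pla2g4a overlapped between the groups. Leukocytes, mast cells among them, are also known to express Ptgs1, Alox5, Alox5ap and Hpgds, and some of their markers were lower in DM. The 4 mast cell and granulocyte markers in the table summed to 6.17, 8.70 and 10.8 CPM in WT and 4.88, 2.41 and 4.08 CPM in DM, with no overlap. Most of this was Kit, which fell by 1.37 (edgeR adjusted p = 0.0126), while the mast cell proteases Cpa3, Mcpt1 and Mcpt2 had at most 13 counts in a library. Ptprc, the common leukocyte antigen, fell by 1.29 (adjusted p = 0.00545), 1 of 2 genes called among the 7 T lymphocyte markers, whose sums overlapped. Kit and Ptprc kept their calls in each of 14 other fits. The part of the tuft cell and leukocyte markers in these falls was not tested.

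**Figure D4:**
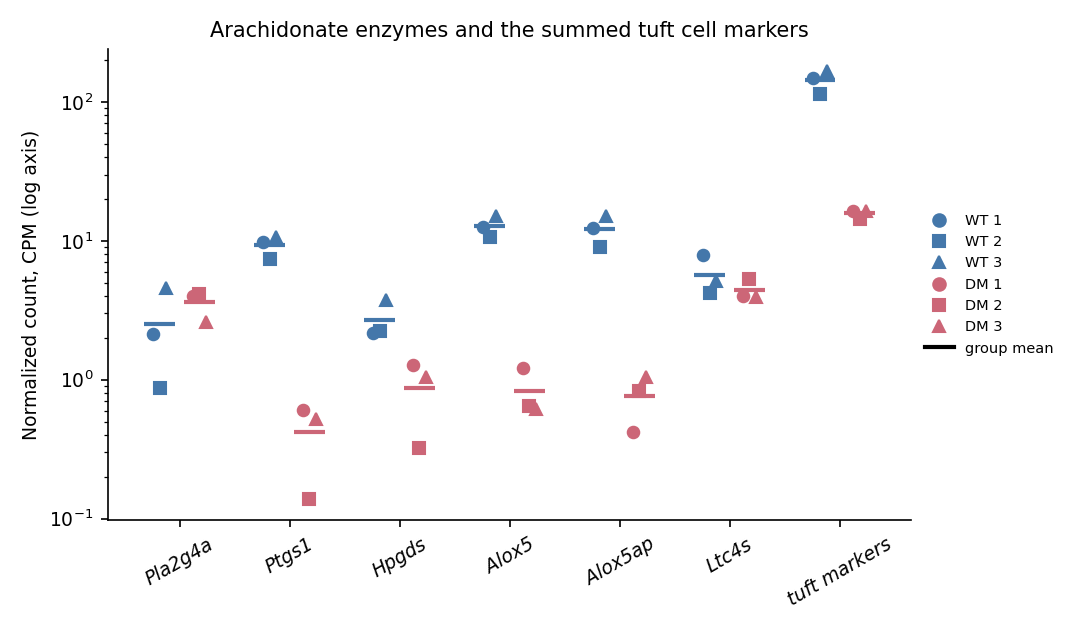
Normalized counts, in CPM on a log axis, of Pla2g4a, of 5 genes of prostaglandin and leukotriene synthesis and of the 8 summed tuft cell markers in each library. Ptgs1, Hpgds, Alox5, Alox5ap and the markers (114 to 168 CPM in WT, 14.4 to 16.5 CPM in DM) do not overlap between the groups, while Pla2g4a and Ltc4s do.

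Of 8 receptor and transporter genes of these mediators tested, 1 rose and 3 fell, with a median of -0.44. Slco2a1, the prostaglandin uptake transporter, had 149, 185 and 180 CPM in WT and 77.0, 67.5 and 80.3 CPM in DM, a fall of 1.19 (SE 0.127, edgeR adjusted p = 0.000357). Abcc4, an exporter that carries prostaglandins among other anions, rose by 1.78 (adjusted p = 0.0144) from 7 to 9 counts per WT library to 22 to 39 in DM, a call lost without DM mouse 2 (adjusted p = 0.0739). Its WT libraries all stood below the filter on low counts, so Abcc4 entered through the DM libraries alone. Ptger4, a receptor of prostaglandin E2, had 20.4, 58.2 and 54.0 CPM in WT and 51.3, 45.4 and 41.7 CPM in DM. It did not pass (0.06, adjusted p = 0.908). WT mouse 1 was the low library, and without it the value was -0.28 (adjusted p = 0.132).

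Genes that return fatty acids to lysophospholipids moved both ways. Of 19 tested, 6 rose and 6 fell, which is 63.2% against 36.8% of all tested genes, and their median was 0.04. Mboat2, an acyltransferase for lysophospholipids, had 0.750, 0.762 and 0.556 CPM in WT and 13.5, 10.5 and 12.3 CPM in DM, a rise of 4.12 (SE 0.242, edgeR adjusted p = 3.14e-05). Lpcat4, an acyltransferase of phosphatidylcholine and phosphatidylethanolamine remodelling, rose by 2.46 (adjusted p = 0.00293), or by 2.09 without WT mouse 1 (adjusted p = 0.000213). Lpcat3, which places arachidonic acid into phospholipids and is the main such enzyme of the intestine, stood at 418 ± 25.1 CPM in WT and 469 ± 34.6 CPM in DM (SD, n = 3). Its difference of 0.17 did not pass (edgeR adjusted p = 0.268), except with library size alone (0.36, adjusted p = 0.0261). Acsl6, an acyl-CoA synthetase, fell by 4.81 (SE 0.480, adjusted p = 0.000274), from 58 to 91 counts in WT to 1 to 4 counts in DM. Its DM libraries all stood below the filter on low counts, so Acsl6 entered through the WT libraries alone. Acsl5, the abundant acyl-CoA synthetase of enterocytes, fell by 0.53 (adjusted p = 0.0135), a call lost with library size alone (adjusted p = 0.0541) and without DM mouse 3 (adjusted p = 0.0621).

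Of 12 tested genes that break lysophospholipids down or sense lysophosphatidic acid, 2 rose and 3 fell, with a median of -0.24. The share called was 41.7%, against 36.8% of all tested genes. Of the receptor genes tested, Lpar2, Lpar3 and Lpar5 fell, Lpar6 rose and Lpar1 did not pass (-0.29, edgeR adjusted p = 0.120). Lpar3 had 9.37, 16.1 and 11.6 CPM in WT and 0.657, 0.789 and 0.902 CPM in DM and fell by 3.97 (SE 0.289, edgeR adjusted p = 7.61e-05). Lpar6 had 2.42, 3.37 and 3.39 CPM in WT and 9.44, 6.31 and 8.54 CPM in DM and rose by 1.41 (SE 0.249, adjusted p = 0.00318). Neither gene overlapped between the groups, and both calls held in each of 14 other fits. Lpar2 fell by 1.39 (adjusted p = 0.0202), a call lost without DM mouse 2 (adjusted p = 0.0687). Lpar5 fell by 0.64 (adjusted p = 0.0284), a call lost in 4 of the 14 other fits, library size alone among them (-0.44, adjusted p = 0.101). Lpar1, Lpar2 and Lpar5 were named after their values were seen.

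**Figure D5:**
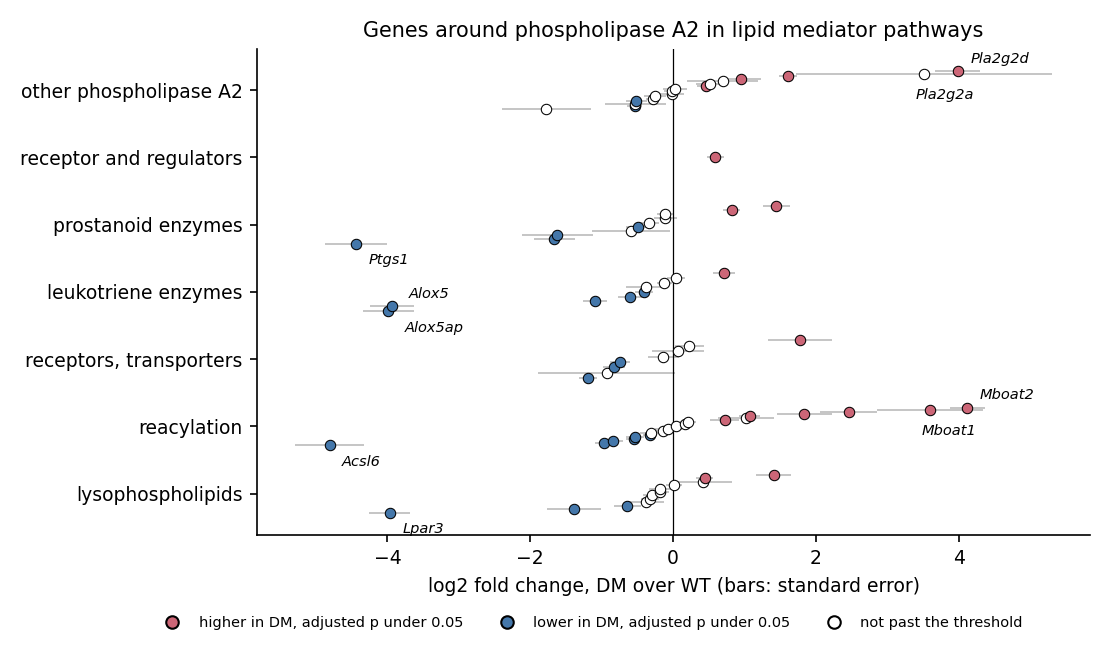
Log2 fold changes, DM over WT, of the 75 tested genes in the 7 pathway lists, with bars for the standard error, 1 row per list. Genes past an adjusted p of 0.05 are filled red where higher and blue where lower in DM, 17 and 23 in all, with Mboat2 (4.12) at the right end and Acsl6 (-4.81) at the left end.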

How the data were processed

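The authors aligned 150 bp paired-end reads to mm9 with HISAT2 (v2.0.5), counted them per gene with featureCounts (v1.5.0-p3) and deposited raw counts, 1 column per mouse, without normalization. Symbols and positions came from the GENCODE annotation of mm9, which held 20032 of the 20073 Ensembl identifiers. The other 336 features are transcripts outside it.

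Counts were filtered by edgeR (4.0.16, R 4.3.3), scaled by TMM and compared between DM and WT with its quasi-likelihood test, Benjamini-Hochberg adjusted over 13346 genes with a threshold of 0.05. The scripts were tested on simulated data. The p-values measure the spread between 3 mice per group. The SE of a log2 fold change was taken back from the same test. It is the size of the fitted coefficient divided by the square root of the F statistic. RPKM used the union of annotated exons. Profiles were taken on log2 CPM (prior count 2).

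The 7 members, the pathway lists and the marker lists were chosen with earlier results of these data known. Named genes are the members and, for Pla2g4c and Pla2g5 only, the 3 protein-coding neighbours on each side and the 5 nearest profiles. The secreted and cytosolic relatives and fixed names of the lists were named too. So were, in each list, the largest rise and fall called with a mean of at least 10 counts. Single markers, and genes marked so in the text, were named after their values were seen.

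Alternatives were DESeq2 (1.42.0), limma-voom (3.58.1), RLE factors, library size alone, other filters, a replicate block, sex as a covariate, and leaving out each library.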

Additional observations from a re-analysis of the deposited data

How the results depend on the processing

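The members were compared under 14 other settings. The log2 fold change of Pla2g4c ran from -9.18 to -8.63 and that of Pla2g15 from 2.00 to 2.40. Leaving out each library in turn gave 5.83 to 7.27 for Pla2g5 and -0.26 to -0.05 for Pla2g6, whose value was 0.041 with library size alone. Pla2g4a ran from 0.12 to 1.24, Pla2g12a from 0.03 to 0.39 and Pla2g10 from -0.56 without WT mouse 1 to 0.86 with limma-voom. With library size alone, the genes called lower numbered 1425 in place of 2273, and the pathway genes called lower 15 in place of 23. The 40 calls among pathway genes numbered 29 to 42 under the other settings, with 27 to 40 of them shared.

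Of the 5 profiles nearest to Pla2g4c, 3 were shared with a prior count of 0.5 and 1 by Pearson's r, and 3 to 5 when a library was left out. For Pla2g5 these numbers were 2, 1 and 2 to 5.

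Of 824 comparisons of a named gene other than the members with its value under another setting, 792 kept their side of the threshold, 27 lost and 5 gained a call, and 0 of the called values changed sign. The sign changed in 13 comparisons of Ptger4, Plaat3, Lig1, Ctnnb1 and Pafah1b2, none of them called. Among the members, Pla2g6 and Pla2g10 changed sign within the ranges given above. Same-numbered mice did not deviate together (correlations of 0.0224, -0.109 and 0.0123), but with so few mice per group this check cannot exclude pairing. Mice of the same number were of the same sex in both groups. With a replicate block, 3834 genes were called in place of 4905 and 34 pathway genes in place of 40. At this depth, few counts limit how well the WT levels of Pla2g15 (5, 6 and 7 counts) and Pla2g5 (5, 12 and 31) are known. The 5 counts of Pla2g10 stood in WT mouse 1, the library with the most counts in all. WT mice 2 and 3 had 59 and 65 counts of Pla2g10.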

Other observations

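Platelet-activating factor is a phospholipid mediator made from a product of phospholipase A2. Its breakdown enzymes and receptor, chosen after their values were seen, held 1 call among 4 tested genes, against 36.8% of all tested genes. Pafah2, an intracellular acetylhydrolase, had 54.5, 55.3 and 50.2 CPM in WT and 81.3, 63.5 and 75.0 CPM in DM and rose by 0.46 on the log2 scale (edgeR adjusted p = 0.0197), a call lost in 3 of the 14 other fits. Pafah1b3, a subunit of another acetylhydrolase, did not pass (0.51, adjusted p = 0.0675), but did without DM mouse 1 (adjusted p = 0.0259) and with library size alone (adjusted p = 0.0192). Its partner Pafah1b2 (-0.01, adjusted p = 0.927) and the receptor gene Ptafr (0.23, adjusted p = 0.400) did not pass in any fit.

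Some further genes of the mediator pathways were also chosen after their values were seen. The first 4 of them kept their calls in all 14 other fits, and Mboat1 did not. The leukotriene B4 receptor genes Ltb4r1 and Ltb4r2 fell by 0.74 and 0.83 on the log2 scale (adjusted p = 0.00394 and 0.00428). Dpep1, a dipeptidase that converts leukotriene D4 to E4, fell by 1.09 (adjusted p = 0.00193), from 508 to 772 CPM in WT to 262 to 306 CPM in DM. Ptges3, a co-chaperone with prostaglandin E synthase activity, rose by 0.82 (adjusted p = 0.00125). Mboat1, a relative of Mboat2, had 0.292, 3.43 and 3.74 CPM in WT and 30.1, 31.7 and 26.9 CPM in DM and rose by 3.60 (SE 0.743, adjusted p = 0.0139). Its call was lost without a filter on low counts (adjusted p = 0.0504) and without DM mouse 2 (adjusted p = 0.0608), and WT mouse 1 was its lowest library. Without WT mouse 1 it rose by 3.04 (adjusted p = 4.09e-06).

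Stem cell markers, 8 genes, summed to 40.1, 132 and 145 CPM in WT mice 1 to 3 and 244 to 322 CPM in DM, and 4 of them rose. Of 8 proliferation markers 7 rose, with sums of 66.9 to 94.0 CPM in WT and 194 to 238 CPM in DM. Enteroendocrine markers summed to 235 to 322 CPM in WT and 98.8 to 109.6 CPM in DM, 6 of 8 falling and 1 rising. T lymphocyte markers, 7 in the table, summed to 86.0 to 172 CPM in WT and 73.1 to 114 CPM in DM. Mast cell and granulocyte markers held 6.17 to 10.8 CPM in WT and 2.41 to 4.88 CPM in DM. Endothelial (3.08 to 5.60 CPM), B and plasma cell (0.607 to 2.18 CPM) and Brunner gland (0.490 to 2.49 CPM) markers were low in every library, with sums that overlapped between the groups. Of the 3 endothelial markers tested, Plvap, named after its values were seen, fell from 25, 14 and 12 counts in WT to 0 in all DM libraries (edgeR adjusted p = 0.00293). Plvap thus passed the filter on low counts through the WT libraries alone. Pancreatic acinar markers summed to 5.66 to 6.33 CPM in WT and 7.18 to 10.3 CPM in DM, with no overlap. Most of this was Cela1, the single one tested, which did not pass (0.51, adjusted p = 0.0876).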
